A study of Homo sapiens with 14 samples.

Results

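Keratins are the intermediate filament proteins of epithelial cells. Each filament is built from pairs of 1 type I and 1 type II chain, so the genes of both types are used together. KRT8 and KRT18 are the usual pair of simple, single-layered epithelia such as the lining of the alveolus and the airway lumen, with KRT7 as a second type II chain and KRT19 as a second type I chain. KRT5, KRT14 and KRT15 mark the basal layer of stratified epithelia, and KRT6A and KRT17 are induced in such epithelia on wounding or stress. KRT81 belongs to the hard keratins of the hair shaft and is also known from some carcinoma lines.

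The expression of 10 keratin genes was followed in the RNA sequencing of A549 and H1792, both established human lung adenocarcinoma lines. KRT7, KRT8, KRT18 and KRT19 are the 4 simple keratins, KRT5, KRT6A, KRT14, KRT15 and KRT17 are the 5 basal or stress keratins, and KRT81 is the single hair keratin. The genes were taken by symbol, and each of the 10 was listed among the 26732 genes that both count tables share and among the 54 keratin genes of the full type I (28) and type II (26) list. They were chosen by family and epithelial type with the measured AMG900 to DMSO fold changes and DMSO levels of these same libraries known, KRT17 among them, so their AMG900 values describe the genes and are no independent evidence of direction. The cells were treated for 48 h with 0.1 µM AMG900, an inhibitor of the aurora kinases that drive mitosis, or with its solvent DMSO. There were 4 DMSO and 4 AMG900 libraries of A549, grown in DMEM, and 3 and 3 of H1792, grown in RPMI medium, both with 10% fetal bovine serum. The study asked what inhibition of aurora kinases does to gene expression in invasive lines. Each line is a single culture lineage, so replicates measure the spread between dishes and not between patients.

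Sequenced depth was 4248944 to 18940099 counts per library in A549 and 42760874 to 79902934 in H1792. The 8 lung adenocarcinoma and alveolar markers summed to 76.2 to 85.5 CPM (library-size-scaled counts with TMM factors over the 14 libraries) with DMSO and 103.7 to 132 CPM with AMG900 in A549, and to 112.8 to 127.5 and 126 to 129.7 CPM in H1792. ABCA3 and MUC1 led them and were called higher with AMG900 in A549 (log2 fold change 0.42 and 0.89), while NKX2-1, SFTPA1, SFTPC and SLC34A2 averaged under 0.1 CPM in each group. The 8 mesenchymal markers, led by VIM and FN1, summed to 1833 to 2236 CPM with DMSO and 2220 to 2346 CPM with AMG900 in A549, and to 10670 to 11280 and 9525 to 9552 CPM in H1792, where the groups did not overlap. The A549 sum joins genes that went opposite ways. FN1 was called higher there (log2 fold change 0.88), COL1A1 (-1.145) and CDH2 (-0.35) were called lower, and VIM was not called (-0.21). The 7 epithelial markers other than keratins summed to 19.3 to 28.4 CPM with DMSO and 43.9 to 51.3 CPM with AMG900 in A549, and to 15.7 to 17.6 and 32.4 to 35.6 CPM in H1792. CDH1 and CLDN4 led them in A549, CLDN4 and EPCAM in H1792 with DMSO and CLDN4 and ESRP2 with AMG900. The 4 immune markers summed to 55.0 to 80.8 CPM with DMSO and 151.8 to 169.7 CPM with AMG900 in A549, and to 99.95 to 115.5 and 170.9 to 196.7 CPM in H1792. Nearly all of this was CD68, a lysosomal protein, which was called higher with AMG900 in both lines (log2 fold change 1.09 and 0.78), and PTPRC and CD3E, which define leukocytes and T cells, stayed under 0.1 CPM in each group. How far these markers bear on the keratin values was not tested.

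Many keratin genes are near-copies of each other, which limits how reads can be told apart. The stretches shown here are from KRT17 and its closest relatives in the type I cluster on chromosome 17. Each is 90 bases of coding sequence read 5′ to 3′ on the gene's own strand from GRCh37, and capitals mark the positions at which the 3 genes differ.
KRT17, exon 6, chr17:39776928-39777017, minus strand: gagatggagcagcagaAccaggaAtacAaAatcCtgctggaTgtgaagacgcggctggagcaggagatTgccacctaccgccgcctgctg
KRT14, exon 6, chr17:39739504-39739593, minus strand: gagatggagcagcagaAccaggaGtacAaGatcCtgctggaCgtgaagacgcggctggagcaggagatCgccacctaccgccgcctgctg
KRT16, exon 6, chr17:39766600-39766689, minus strand: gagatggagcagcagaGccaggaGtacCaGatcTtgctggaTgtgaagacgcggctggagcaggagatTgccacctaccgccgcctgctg
Among the 3 genes 7 of the 90 positions differ. The stretch was picked as the most alike 90-base window within their coding exons of equal length, so it is not typical of these genes.

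Over the 749 bases of coding exons of equal length, KRT14 was 92% and KRT16 83.6% identical to KRT17. Over 910 such bases KRT86 was 97% and KRT83 94.9% identical to KRT81. Of all 50-base windows of the KRT81 transcript, 44.6% occurred unchanged in another gene, 38.4% in KRT86. The share was 39.2% for KRT8, led by the pseudogene KRT8P3, 36.7% for KRT18, led by KRT18P11, and 39.2% for KRT6A, led by KRT6C. For KRT14 it was 24.2%, led by KRT16, and for KRT17 17.4%, led by ENSG00000290656 (9.54%) and the pseudogene KRT17P3 (8.65%). It was 1.02% to 4.52% for KRT7, KRT19, KRT15 and KRT5. With 75-base windows it fell to 36.6% for KRT81, 18.8% for KRT8, 6.5% for KRT18 and 4.57% for KRT17. Read length and the handling of reads with several matches are not given in the sources used here, so the values of KRT81, KRT6A, KRT14, KRT8 and KRT18 carry that uncertainty, and those of KRT17 carry less of it. KRT81 (chr12:52679697-52685318) also lies within the interval of KRT86 on the opposite strand, with 0 bases shared between the exons of their main transcripts, and KRT7-AS overlaps 221 exon bases of KRT7 (chr12:52626304-52645970). Whether counting used strand is not stated. The RefSeq promoter table of GRCh38.p14, with 250 bases before and 50 after each start, matched 2 of the 10 genes, KRT5 and KRT8. Neither window holds TATAAA or TGANTCA on either strand. TATAAA occurs in 11.5% of all 35116 promoters and in 21 of the 38 keratin gene promoters of the table (55.3%), and TGANTCA in 7.71% and in 0 of 38.

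The most abundant of the 10 in A549 with DMSO were KRT81 and KRT7, at 2396 ± 286 and 2282 ± 317 CPM per kilobase of transcript (mean ± SD, n = 4), followed by KRT8 at 1714 ± 248 and KRT18 at 1101 ± 45.9. KRT81 and KRT7 did not differ beyond their spread, and the lowest KRT7 library lay just below the highest KRT8 library. KRT19 came far below them at 18.0 ± 4.18 CPM per kilobase. The basal genes followed, with KRT5 at 0.462 ± 0.158 and KRT15 at 0.298 ± 0.256, which overlapped, KRT6A at 0.131 ± 0.0429, and KRT14 and KRT17 at 0.0176 ± 0.0352 and 0.0142 ± 0.0284, each seen in 1 of 4 libraries. The 5 basal keratins summed to 0.923 ± 0.281 CPM per kilobase, which was 0.0119% ± 0.00235 of the level of all 54 keratins. In H1792 with DMSO the order was KRT7 at 617 ± 73.9 CPM per kilobase (n = 3), KRT8 at 261 ± 35.8, KRT18 at 189 ± 14.4 and KRT19 at 5.12 ± 0.748, each apart from its neighbours by more than their spread. KRT81 stood below these at 1.87 ± 0.199. KRT15 at 0.439 ± 0.0885 and KRT17 at 0.349 ± 0.0564 overlapped, and KRT6A, KRT5 and KRT14 averaged 0.0490, 0.0467 and 0.0160 CPM per kilobase, with overlapping libraries. The H1792 basal sum was 0.8997 ± 0.134 CPM per kilobase, or 0.0811% ± 0.00669 of all keratin. Both lines thus carried the simple set as their main keratins, and A549 carried KRT81 beside it.

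**Figure D1:**
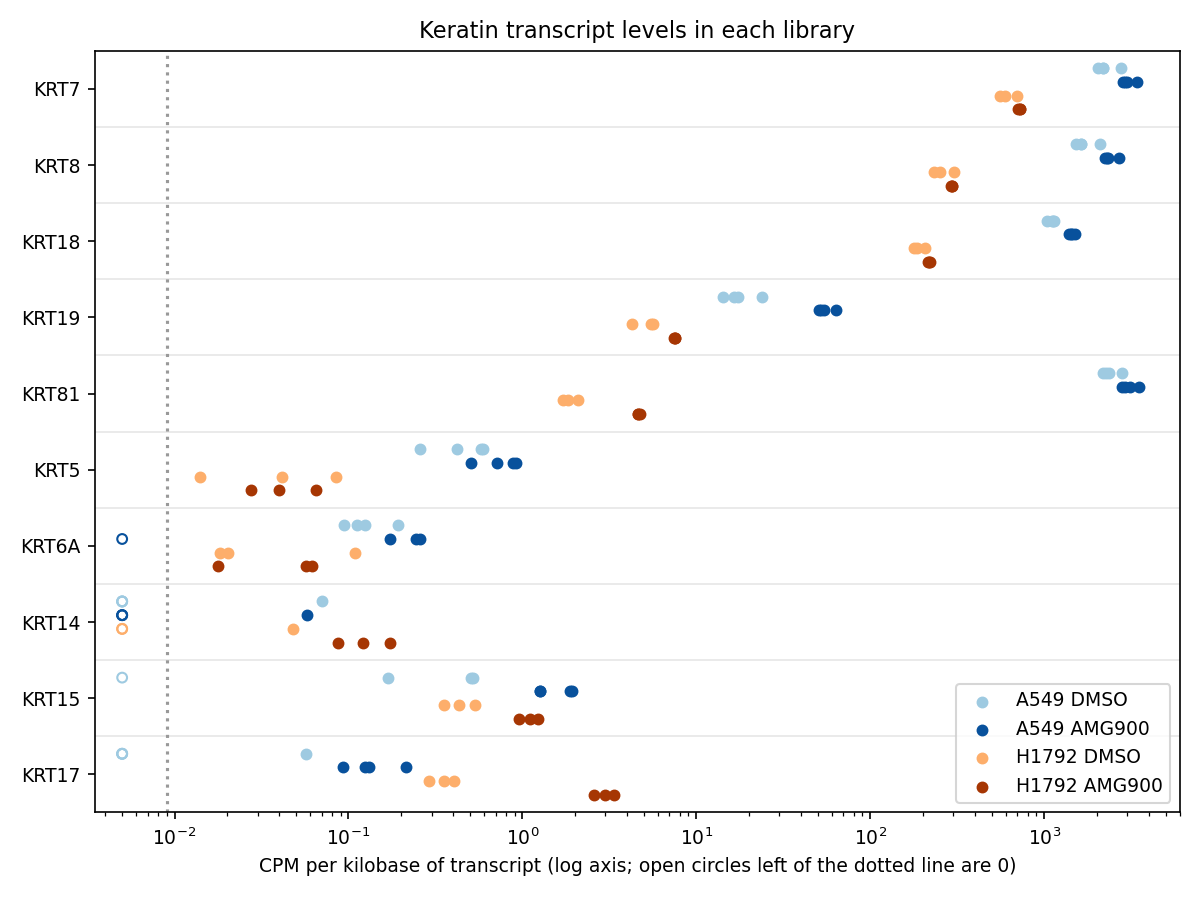
The level of each of the 10 keratins in each of the 14 libraries, in CPM per kilobase of transcript on a log axis, with libraries at 0 drawn as open circles left of the dotted line. The simple keratins KRT7, KRT8 and KRT18 lie at or above 178 CPM per kilobase in every library and the basal ones at or below 3.35, while KRT81 lies at or above 2167 in A549 and at or below 4.76 in H1792.

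Between the DMSO-treated lines, 8 of the 10 genes had enough counts to be tested, and 7 of these passed an adjusted p under 0.01 in the quasi-likelihood test of edgeR, with p-values adjusted over all genes by the Benjamini-Hochberg method. Of these 1 was higher in H1792 and 6 were lower. Among all 14769 genes 66.1% were called, 34.2% higher and 31.9% lower in H1792. The genes were picked with such results known, so nothing is read from that contrast of shares. The medium, the sequenced depth and the count table differed with the line, so line, medium, depth and table cannot be told apart.

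KRT81, the hair keratin, showed the widest gap of the 10. It held 5420, 4180, 4353 and 4534 CPM in the A549 DMSO libraries and 3.29, 3.503 and 4.04 CPM in those of H1792. The groups were far from overlapping, with a log2 difference (H1792 minus A549) of -10.33 (SE 0.14, adjusted p = 5.52e-21), a 1284-fold lower level. The neighbouring hair keratins KRT83 and KRT85 were also lower in H1792, by -7.97 (SE 0.21) and -6.75 (SE 0.63), and KRT86 by -2.79 (SE 0.35). KRT83 and KRT85 passed the low-count filter of the test only through A549, so their direction was fixed if they were called. Since KRT81 and KRT86 share much of their sequence, part of the reads given to one may come from the other.

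The simple keratins were all lower in H1792. The log2 difference was -2.71 (SE 0.11, adjusted p = 2.94e-14) for KRT8, -2.54 (SE 0.07, adjusted p = 2.86e-17) for KRT18, -1.89 (SE 0.10, adjusted p = 1.82e-12) for KRT7 and -1.76 (SE 0.15, adjusted p = 1.73e-09) for KRT19. The type II chain KRT8 and its type I partner KRT18 thus stood 6.54-fold and 5.81-fold lower, and their ratio per length was 1.56 ± 0.209 in A549 and 1.38 ± 0.0838 in H1792. Of the basal genes KRT5 was lower in H1792 (log2 difference -3.24, SE 0.55, adjusted p = 2.84e-05), from 6, 15, 13 and 10 counts in A549 against 2, 9 and 4 in the more deeply sequenced H1792. KRT5 passed the low-count filter only through A549, so it had to be lower in H1792 if called, and that call is a description. KRT15 was not called (0.64, SE 0.50, adjusted p = 0.254), and its libraries overlapped.

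KRT17, a type I keratin (chr17:39775694-39781094, minus strand, 8 exons), went the other way. The A549 DMSO libraries held 0, 1, 0 and 0 KRT17 counts, and those of H1792 39, 21 and 23. The groups did not overlap, and the ratio of the summed scaled counts was 25.4 (95% exact interval 4.44 to 1017, counting error only). KRT17 passed the low-count filter only through H1792, and there through its AMG900 libraries. The gene was picked with these levels known, so its call, the 1 in that direction, is a description. The fitted log2 difference of 4.42 rests on that single A549 count and lay between 3.85 and 7.15 in the alternative fits. The gene was left untested when at least 10 counts were asked of every library. KRT6A and KRT14 were not tested between the lines, with at most 16 counts in any DMSO library.

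With AMG900, 7 of the 10 genes could be tested in A549, and 5 were higher and 0 lower at an adjusted p under 0.01, against 35% of all 13174 genes called, 17.2% higher and 17.8% lower. In H1792 7 could be tested, with 4 higher and 0 lower, against 35.1% of all 15017 genes called, 16.2% higher and 18.8% lower. Nothing is read from these shares, since the genes were picked with this contrast known. The median log2 fold change of the tested members was 0.39 in A549 and 0.54 in H1792, and that of all genes -0.01 and 0.01. In both lines KRT15 and KRT19 were higher with AMG900. The 10 keratins lie between 55.8% and 62.3% GC, and the fold change of all genes rose with transcript GC (Spearman's rho 0.499 across genes in A549 and 0.481 in H1792, a description, since genes are not replicates). Genes over 55% GC had a median log2 fold change of 0.30 in A549 and 0.21 in H1792. The changes of the abundant keratins are of that size, so the value after a correction for GC content is given beside each.

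KRT17 had the largest change of the 10 in H1792. It rose from 0.611, 0.440 and 0.537 CPM in the DMSO libraries (39, 21 and 23 counts) to 5.08, 3.91 and 4.51 CPM with AMG900 (386, 191 and 254 counts). Each AMG900 library was thus far above each DMSO library. The log2 fold change was 3.07 (SE 0.20), an 8.41-fold increase, and 2.76 (SE 0.18) after the GC correction. It lay between 2.69 and 3.18 in the 15 alternative fits, and the gene was called higher in each. Even so, KRT17 with AMG900 stayed at 2.97 ± 0.387 CPM per kilobase, against 716 ± 10.9 for KRT7 in the same libraries.

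In A549 KRT17 remained close to the limit of detection. The libraries held 0, 1, 0 and 0 counts with DMSO and 2, 2, 6 and 3 with AMG900, so each treated library was above each control. The ratio of the summed scaled counts was 10.6 with a 95% exact interval of 1.59 to 449 for counting error, and the low-count filter kept it out of the test. Without the filter the log2 fold change was 2.81 with an edgeR adjusted p = 0.0752 over 20076 genes. In the fit over both lines the difference in its response (H1792 minus A549) was -0.09 on the log2 scale (adjusted p = 0.909), with both signs among the alternatives, from -2.82 to 0.47. The lowest was without DMSO replicate 2 of A549, which holds its only DMSO count. At the depth of A549, no difference between the lines in the KRT17 response was detectable.

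Close relatives of KRT17 were also low in counts. KRT14, the partner of KRT5 in basal cells, had 5, 0 and 0 counts with DMSO and 15, 7 and 16 with AMG900 in H1792, without overlap. The ratio of its summed scaled counts was 6.48 (95% exact interval 2.55 to 21.1, counting error only), and without the filter its adjusted p was 0.0242, above the threshold. In A549 KRT14 held 2 counts over the 4 DMSO libraries and 1 over the 4 AMG900 libraries. KRT16, a stress keratin outside the 10, rose in H1792 (log2 fold change 2.52, SE 0.47, adjusted p = 0.0013) from 7, 3 and 5 counts to 30, 41 and 28. KRT16 passed the low-count filter there only through its AMG900 libraries, so it had to be higher if called. Its call is a description. Reads from these genes and KRT17 can match more than 1 of them, as the stretches above show. The 50-base windows of KRT17 were shared most, though, with ENSG00000290656 and KRT17P3.

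KRT15, a type I keratin of basal cells that shares little sequence with the others, rose in both lines. In A549 the libraries held 4, 0, 4 and 15 counts with DMSO and 23, 45, 40 and 50 with AMG900, or 0.510 ± 0.439 against 2.71 ± 0.630 CPM. The treated libraries were all above the controls, with a log2 fold change of 2.41 (SE 0.53, adjusted p = 0.00173) and 2.17 (SE 0.52) after the GC correction. KRT15 passed the low-count filter in A549 only through its AMG900 libraries, so it had to be higher there if called. Its call in A549 is therefore a description. The call was kept in all 16 alternative fits, also without the filter. KRT15 was left untested there when at least 10 counts were asked of every library. In H1792 it went from 0.737, 0.608 and 0.910 CPM to 1.65, 1.88 and 2.11 CPM, again without overlap. The log2 fold change there was 1.32 (SE 0.23, adjusted p = 0.000987) and 1.10 (SE 0.23) after the correction. The difference between the lines was -1.17 (SE 0.61, adjusted p = 0.181) and did not pass.

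The remaining basal genes were not called. KRT5 in A549 had 1.33, 1.29, 0.937 and 0.576 CPM with DMSO and 1.60, 1.99, 1.14 and 2.06 CPM with AMG900, and the groups overlapped (log2 fold change 0.71, SE 0.38, adjusted p = 0.132). In H1792 it had 2, 9 and 4 counts against 11, 3 and 5 and was not tested. KRT6A had 0 to 11 counts in A549 and 2 to 16 in H1792, with overlapping groups in both. Summed over the 5 genes, the basal level was 0.923 ± 0.281 CPM per kilobase with DMSO and 2.67 ± 0.416 with AMG900 in A549. In H1792 it went from 0.8997 ± 0.134 to 4.28 ± 0.411, most of it KRT17. Without overlap in either line, the basal share of all keratin was 0.0119% against 0.0263% in A549 and 0.0811% against 0.335% in H1792.

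**Figure D2:**
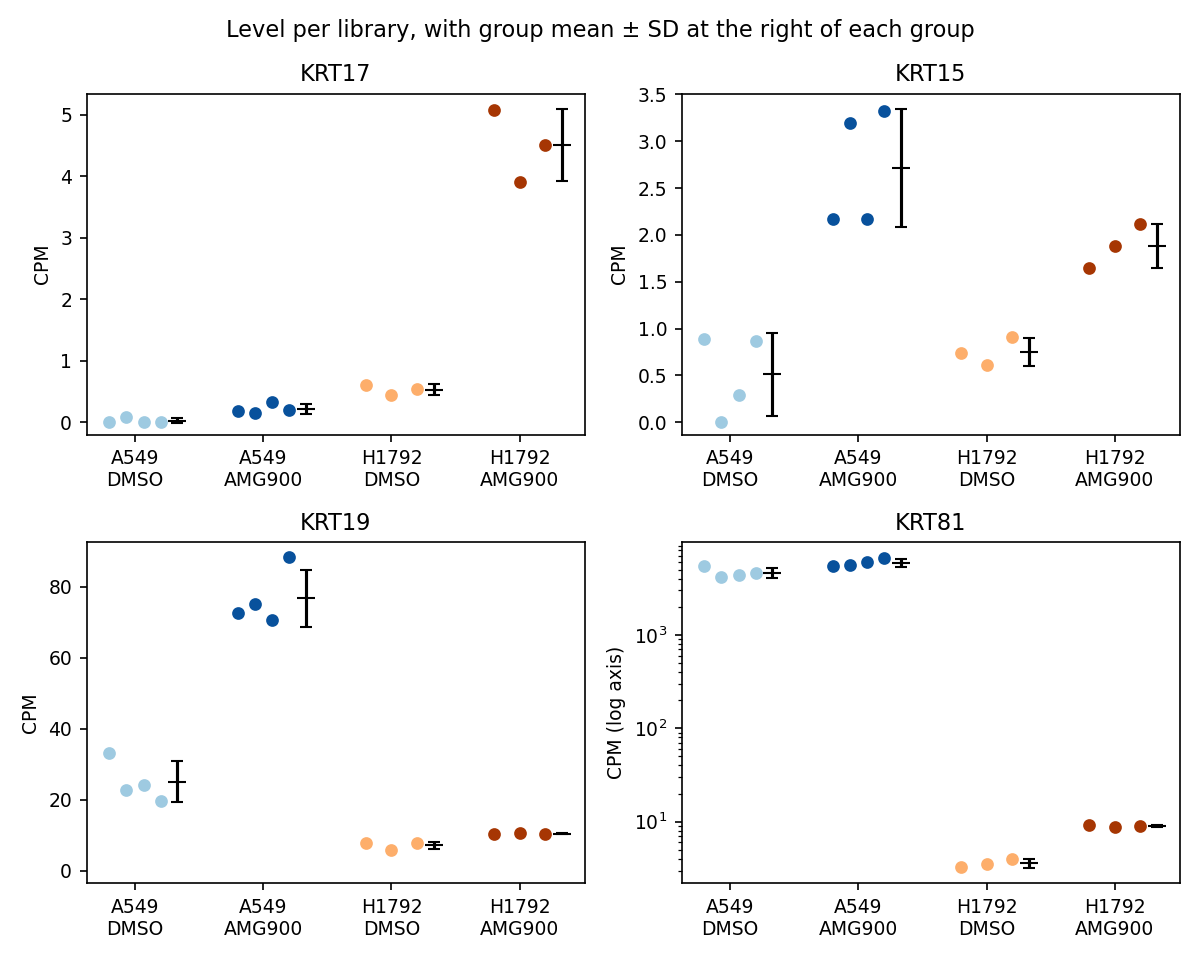
CPM of KRT17, KRT15, KRT19 and KRT81 in each library, with the mean and SD (bars) beside each group; the KRT81 axis is a log axis and the others are linear. KRT17 with AMG900 in H1792 sits at 3.91 to 5.08 CPM above all other libraries, KRT19 with AMG900 in A549 at 70.7 to 88.5 CPM, and the KRT81 groups of A549 overlap while those of H1792 do not.

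KRT19, the simple type I keratin that has no tail domain, had the largest change among the simple keratins. In A549 it rose from 33.3, 22.8, 24.2 and 19.7 CPM to 72.6, 75.2, 70.7 and 88.5 CPM. All treated libraries were above all controls, with a log2 fold change of 1.58 (SE 0.14, adjusted p = 3.74e-07), 2.99-fold, and 1.18 (SE 0.12) after the GC correction. In H1792 it went from 7.77, 5.92 and 7.65 CPM to 10.3, 10.5 and 10.4 CPM, also without overlap. The log2 fold change was 0.54 (SE 0.11, adjusted p = 0.00279), and 0.23 (SE 0.09, adjusted p = 0.0587) after the correction, which ended the call. Leaving out any 1 of the 3 AMG900 libraries ended it too, with adjusted p of 0.0131 to 0.0141. The response was smaller in H1792 by 1.12 on the log2 scale (interaction -1.12, SE 0.19, adjusted p = 0.000273), and this held in all 23 alternatives (-1.25 to -0.90). Of all genes 9.17% had a called interaction in that direction and 5.37% in the other. Of the 8 keratins tested, 1 was called in each. The length-scaled ratio of KRT7 to KRT19 moved from 129 ± 16.7 to 55.2 ± 1.54 in A549 and from 121 ± 11.3 to 95.7 ± 0.808 in H1792.

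KRT7, KRT8 and KRT18 showed smaller changes. KRT18 in A549 rose from 1573, 1460, 1601 and 1589 CPM to 2016, 2039, 1963 and 2125 CPM, without overlap (log2 fold change 0.31, SE 0.05, adjusted p = 0.000313). KRT8, its type II partner, went from 3711, 2724, 2916 and 2882 CPM to 3959, 4117, 4081 and 4806 CPM (0.39, SE 0.09, adjusted p = 0.00269). KRT7 went from 4465, 3314, 3522 and 3533 CPM to 4626, 4866, 4736 and 5557 CPM (0.34, SE 0.09, adjusted p = 0.00581). In both of the last genes DMSO replicate 1, the smallest library, was the highest control and lay closest to the treated libraries. After the GC correction all 3 calls were lost, with log2 fold changes of -0.0037 (SE 0.05) for KRT18, 0.04 (SE 0.08) for KRT8 and -0.06 (SE 0.07) for KRT7. KRT7 also lost its call on leaving out any single A549 library except DMSO replicate 1, with adjusted p of 0.0105 to 0.0277, and with scaling by total counts (0.26, adjusted p = 0.0141). KRT8 lost its call without AMG900 replicate 4 or DMSO replicates 2, 3 or 4. Without DMSO replicate 1 the KRT8 response was called smaller in H1792 than in A549 (interaction -0.41, adjusted p = 0.00601), where with it the value was -0.30 (adjusted p = 0.124).

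In H1792 none of the 3 passed. KRT18 had 291, 252 and 260 CPM with DMSO and 302, 310 and 306 CPM with AMG900 (log2 fold change 0.19, SE 0.06, adjusted p = 0.021). KRT7 had 1134, 900 and 971 CPM against 1143, 1172 and 1175 CPM (0.21, SE 0.07, adjusted p = 0.0351). KRT8 had 537, 412 and 451 CPM against 520, 525 and 527 CPM, with overlapping groups (0.17, SE 0.08, adjusted p = 0.117). DMSO replicate 1 was the highest control for each of them, and without it all 3 were called higher, with log2 fold changes of 0.23 to 0.29. After the GC correction the values were -0.08 for KRT18, -0.11 for KRT7 and -0.12 for KRT8. With transcript length in the correction they were called lower, at -0.16, -0.18 and -0.19. The direction of these 3 genes in H1792 therefore was not settled by these libraries.

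**Figure D3:**
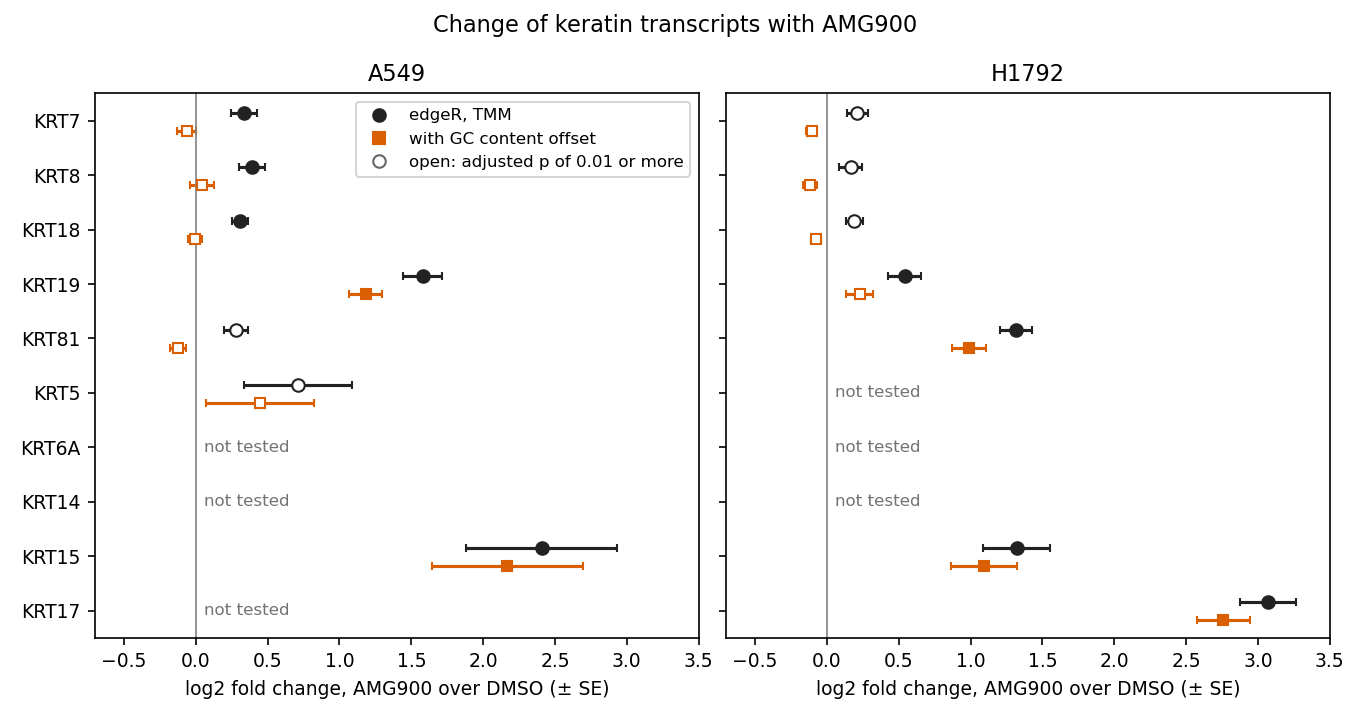
Log2 fold change of AMG900 over DMSO (± SE) for the 10 keratins in A549 (4 against 4 libraries) and H1792 (3 against 3), from the edgeR fit (circles) and with an offset for GC content (squares); open symbols have an adjusted p of 0.01 or more. KRT15 and KRT19 in A549 and KRT17, KRT15 and KRT81 in H1792 stay called with the offset, while KRT7, KRT8 and KRT18 lie near 0.

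KRT81 rose in H1792, where it was scarce, and in A549, where it was abundant, its call depended on the filter and on 1 library. In H1792 it rose from 3.29, 3.503 and 4.04 CPM to 9.18, 8.86 and 8.90 CPM, without overlap. The log2 fold change was 1.32 (SE 0.11, adjusted p = 1.18e-05), 2.49-fold, and 0.99 (SE 0.12) after the GC correction. In A549 it had 5420, 4180, 4353 and 4534 CPM with DMSO and 5412, 5610, 5999 and 6721 CPM with AMG900, and the groups overlapped only through DMSO replicate 1. There the log2 fold change was 0.28 (SE 0.08, adjusted p = 0.0128), 0.37 (adjusted p = 2.45e-06) without that library and -0.12 (SE 0.06) with the GC correction. It was called higher there with no filter on low counts (0.29, adjusted p = 0.00176) and with at least 10 counts in every library (0.32, adjusted p = 0.00695). The lines differed in the KRT81 response by 0.96 (SE 0.14, adjusted p = 3.95e-05), a difference called in all 23 alternatives, from 0.88 to 1.18. KRT86 in H1792 rose with it, from 3.96, 3.82 and 3.08 CPM to 7.58, 7.02 and 6.89 CPM (log2 fold change 0.98, SE 0.13, adjusted p = 0.000131).

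KRT81 made up 31.4% ± 0.404 of the keratin level per length in A549 with DMSO and 30.4% ± 0.961 with AMG900, and 0.171% ± 0.0302 and 0.364% ± 0.0113 in H1792. The 4 simple keratins made up 67.1% and 68.3% in A549 and 96.8% and 96.4% in H1792. The type II to type I ratio was 5.64 ± 0.649 with DMSO and 5.59 ± 0.334 with AMG900 in A549, and 4.18 ± 0.201 and 4.14 ± 0.0343 in H1792, so within a line the groups overlapped. Without KRT81 the A549 ratio was 3.56 ± 0.437 and 3.59 ± 0.194. All keratins together took 1.42% ± 0.152 of the counts with DMSO and 1.69% ± 0.1104 with AMG900 in A549, and 0.183% ± 0.0158 and 0.202% ± 0.00276 in H1792.

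**Figure D4:**
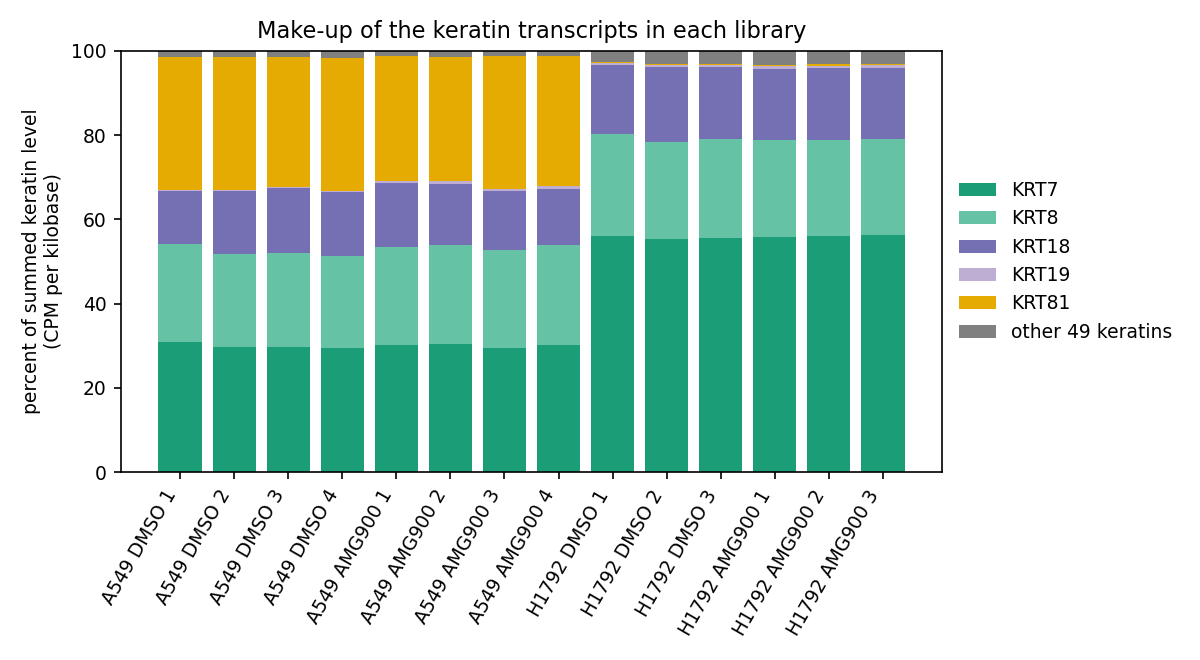
Percent of the summed keratin level (CPM per kilobase of transcript, all 54 keratin genes) held by KRT7, KRT8, KRT18, KRT19, KRT81 and the remaining keratins in each library. KRT81 holds 29.5% to 31.8% in the A549 libraries and at most 0.377% in those of H1792, and the make-up differs far more between the lines than between treatments.

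Outside the 10, 44 keratin genes were listed. In A549 8 of them were tested, with 1 higher and 1 lower with AMG900, near the 17.2% and 17.8% of all genes. In H1792 10 were tested, with 3 higher and 0 lower, against 16.2% and 18.8% of all genes. KRT34, a type I hair keratin, was higher in both lines, with log2 fold changes of 2.34 (SE 0.47, adjusted p = 0.000921) in A549 and 1.92 (SE 0.43, adjusted p = 0.00366) in H1792. It had 2, 10, 1 and 9 counts against 18, 46, 50 and 36 in A549, and 12, 4 and 4 against 39, 27 and 22 in H1792. KRT34 passed the low-count filter in each line only through its AMG900 libraries, so it had to be higher if called. That holds for KRT16 in H1792 too, so nothing is read from the counts of called genes. KRT80, a type II keratin, was lower in A549 (-0.37, SE 0.08, adjusted p = 0.00119), with overlapping groups of 122 to 150 and 107 to 125 CPM. In H1792 it was not called (0.12, adjusted p = 0.138), and the difference between the lines passed (0.42, SE 0.11, adjusted p = 0.00844). KRT16 and KRT86, given above, were the other called keratins in H1792. Between the DMSO-treated lines 10 of 11 tested were lower in H1792, against 31.9% of all genes. Some of them, KRT83, KRT84 and KRT85 among these, passed the low-count filter only through A549. Such genes had to be lower in H1792 if called, so nothing is read from that share.

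The 20 linker genes fix keratin filaments to desmosomes and hemidesmosomes. In A549 4 of 16 tested rose and 2 fell, against 17.2% and 17.8% of all genes. In H1792 4 of 14 rose and 3 fell, against 16.2% and 18.8%. The median log2 fold change was 0.25 and 0.17, beside -0.01 and 0.01 over all genes and 0.30 and 0.21 over those of more than 55% GC. JUP, the plakoglobin of desmosomal plaques, rose in A549 from 118 ± 6.14 to 348 ± 29.0 CPM (log2 fold change 1.49, SE 0.07, adjusted p = 7.9e-10). In H1792 JUP was called higher too, by less (0.26, SE 0.05, adjusted p = 0.0024). ITGB4, which binds keratin through plectin in hemidesmosomes, rose in H1792 from 3.17 ± 0.452 to 7.89 ± 0.220 CPM (1.31, SE 0.13, adjusted p = 2.43e-05). It was also called higher in A549 (0.88, SE 0.08, adjusted p = 6.5e-07). Its partner ITGA6 fell in both lines, by 0.60 (SE 0.13) in A549 and 0.87 (SE 0.11) in H1792 on the log2 scale. PKP4, a plakophilin relative, fell by 0.85 in A549 and by 0.36 in H1792. DSG2, the desmoglein of simple epithelia, fell in H1792 by 0.68 (SE 0.08, adjusted p = 8.95e-05).

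Of 26 genes of squamous differentiation and its regulators, 12 were tested in A549, of which 4 rose and 2 fell, and 15 in H1792, of which 6 rose and 0 fell. The shares over all genes were again 17.2% higher and 17.8% lower in A549 and 16.2% and 18.8% in H1792. The list had a median log2 fold change of 0.48 and 0.76, beside -0.01 and 0.01 over all genes and 0.30 and 0.21 over those of more than 55% GC. GC-corrected values are not given for this list, and how far the GC trend bears on its medians was not tested. SOX2, a stem cell and squamous lineage factor, rose in A549 from 5.60 ± 0.527 to 11.7 ± 1.33 CPM (0.97, SE 0.16, adjusted p = 0.000152) and was below 0.1 CPM in H1792. CNFN, a cornified envelope protein, rose in A549 by 0.94 (SE 0.16, adjusted p = 0.000234). TFAP2C, an AP-2 factor, fell there by 0.59 (SE 0.16, adjusted p = 0.00707). In H1792 the envelope protein gene SPRR2D rose from 1.68 ± 0.249 to 4.70 ± 1.01 CPM (1.496, SE 0.19, adjusted p = 0.00014) and LYPD3, a surface protein of stratified epithelium, from 3.79 ± 0.1801 to 8.12 ± 0.872 CPM (1.10, SE 0.12, adjusted p = 4.67e-05). TP63, the master factor of basal cells, averaged 1.08 and 1.29 CPM in A549 and stayed under 0.1 CPM in H1792. DSG3, another basal marker, was under 0.1 CPM in all groups.

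Among 12612 genes, those whose log2 CPM followed KRT17 most closely over the 14 libraries, after the mean of each line was removed, were MPV17L2, TMEM120A, PLA2G6, CREB3L1 and SPOCD1, with Pearson's r of 0.959 to 0.969. The libraries of a line share their treatment groups, so any gene that rises steadily with AMG900 in both lines scores highly, and the correlation is a description. Their log2 fold changes were smaller than that of KRT17, from 0.20 to 0.78 in A549 and from 0.48 to 1.32 in H1792. Each was called higher in H1792. In A549 MPV17L2 (0.20) and PLA2G6 (0.72) were not called, with an edgeR adjusted p of 0.124 and 0.0126.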

How the data were processed

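RNA was sequenced on an Illumina NextSeq instrument in 14 libraries, 8 of A549 and 6 of H1792. The authors deposited raw read counts per gene symbol, 1 table per line of 26760 entries each. The submitters' processing notes name STAR, HTSeq and hg19 (GRCh37), with no role or version. Annotation, read length, strand setting and the treatment of reads with several matches are not given in the sources used here. For H1792, 28 entries with calendar dates in place of symbols (0.101% to 0.117% of the counts) were left out. The protocol gives 3 dishes per treatment, while the labels list 4 libraries per treatment of A549, all of which were used.

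Counts were analysed in R 4.3.3 with edgeR 4.0.16 (filterByExpr, TMM factors, quasi-likelihood test) and Benjamini-Hochberg adjustment over all genes tested at an FDR of 0.01, in each line alone and, for the baseline difference and the interaction, in 1 fit with 4 groups. Levels are CPM with TMM factors of all 14 libraries, also divided by the length of the main GENCODE transcript (GRCh37), and were not tested. GC content was found for 97.1% and 95.8% of the tested genes and corrected by a natural spline with 5 degrees of freedom per library. The biological coefficient of variation was 12.8% in A549 and 9.60% in H1792. Replicates of 1 group differed by more than sampling noise (chi-square per gene 3.24 to 45.2), and p-values measure the spread between dishes. Exact intervals cover counting error only. Scripts were tested on simulated data.

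The alternatives were DESeq2 1.42.0, its size factors, total counts, no filter, at least 10 counts in every library, an FDR of 0.05, a 2-fold change, GC and length offsets, a replicate block and each library left out. The members and lists were chosen with earlier results of these data known. Named besides the 10 genes are every other keratin called with AMG900 in a line, the 3 strongest rising and falling genes per line of the linker and squamous lists (mean of at least 100 counts, no overlap) and the 5 genes most like KRT17. KRT83, KRT85, KRT14 without the filter and the markers are outside that rule or were named after their values were seen. Sequence stretches of 1 gene set are not reported here.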

Additional observations from a re-analysis of the deposited data

Results flagged for a closer look

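In the fit over both lines, the effect of AMG900 on KRT19 was smaller in H1792 than in A549 (interaction -1.12 on the log2 scale). That on KRT81 was larger (0.96). Both differences passed the interaction test, out of 8 keratins tested. Of all 14769 genes 14.5% had a called interaction, 5.37% higher and 9.17% lower, and nothing is read from the count of keratins.

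Among 28 groups of 4 libraries, 4 held a library far from the others. KRT14 stood at 0.0942 CPM in AMG900 replicate 1 of A549 and at 0.115 CPM in DMSO replicate 4, with 0 in the other libraries of each group, and KRT17 at 0.0862 CPM in DMSO replicate 2. These are 1 or 2 counts each, and a lone count above 0 meets the criterion by construction, so the chance rate of about 1 in 20 groups has no bearing on those 3. The ratio of type II to type I keratin level was 6.61 in A549 DMSO replicate 1, the smallest library, against 5.23 to 5.40 in the other DMSO libraries. In that library KRT7, KRT8 and KRT81 were also the highest of the DMSO group, and KRT18 was not.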

How the results depend on the processing

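Over 584 alternative fits of single members, 526 kept both sign and call, 27 lost a call (7 of them with a turned sign) and 10 gained one (3 with a turned sign). In all 31 turned in sign, 21 of them called in neither fit. With scaling by total counts KRT7 in A549 lost its call (0.26, adjusted p = 0.0141), and KRT81 there gained one with no filter (0.29) and with 10 counts in every library (0.32). With a GC content offset, the A549 members called higher fell from 5 to 2, as they did with GC and length, with a replicate block and GC, and with a 2-fold threshold. The offset turned KRT18 (-0.0037), KRT7 (-0.064) and KRT81 (-0.12) in A549, and KRT18 (-0.075), KRT7 (-0.11) and KRT8 (-0.12) in H1792. With length as well, KRT18 (-0.074), KRT7 (-0.12), KRT81 (-0.16) and KRT8 (-0.0037) turned in A549, and KRT18 (-0.16), KRT7 (-0.18) and KRT8 (-0.19) in H1792, where 3 members were then called lower in place of 0. With the block and the GC offset the values were -0.0039, -0.058 and -0.12 for KRT18, KRT7 and KRT81 in A549 and -0.075, -0.11 and -0.12 for KRT18, KRT7 and KRT8 in H1792. The cause of the GC trend was not tested.

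The interaction of KRT17 turned from -0.09 to 0.21 with DESeq2, 0.068 with the GC offset, 0.035 with GC and length, and 0.10 with the block and GC, and ranged from -2.82 (without DMSO replicate 2 of A549, which holds its only DMSO count) to 0.47 with single libraries left out. That of KRT7 turned to 0.013 with the GC offset and 0.0059 with the block and GC. With single libraries left out, members called higher ranged from 3 to 6 in A549 and from 3 to 7 in H1792, and members with a lower interaction from 1 to 2. The higher interaction of KRT81 was under 2-fold, so 0 remained at that threshold, and 0 members were called higher at baseline when 10 counts were asked of every library, since KRT17 was not tested.

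Replicate numbers did not pair the libraries (correlation of same-numbered deviations -0.06 to 0.04, best with its own number in 1 of 7 pairs). The replicate block alone changed no member's call: KRT17 in H1792 had 3.08, KRT19 in A549 1.58, and the interactions of KRT19 and KRT81 were -1.11 and 0.96.

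Levels depend on the length used. With the coding length and then the longest transcript, KRT81 took 33.0% and 36.2% of the keratin level in A549 with DMSO, 32.0% and 35.1% with AMG900, and 0.392% and 0.424% in H1792 with AMG900. The type II to type I ratio was 6.31 and 7.37 in A549 with DMSO, 6.22 and 7.20 with AMG900, 4.52 and 5.23 in H1792 with DMSO, and 4.47 and 5.17 with AMG900. The summed keratin level was 9233 and 6627 CPM per kilobase against 7629 in A549 with DMSO, 12220 and 8768 against 10130 with AMG900, 1309 and 947 against 1107 in H1792 with DMSO, and 1512 and 1098 against 1280 with AMG900, the last being 1323 with DESeq2 size factors and 1221 with total counts. With the longest transcript the basal share was 0.0203% in A549 with AMG900, and 0.0632% and 0.289% in H1792 with DMSO and AMG900.

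At the depths sequenced, KRT17, KRT14 and KRT6A in A549 and KRT5, KRT6A and KRT14 in H1792 held at most 16 counts per library. A change there was therefore not detectable unless large.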
